A study of Mus musculus with 6 samples.

Results

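Tumor-associated macrophages (TAMs) were examined for their CC chemokine genes, Ccl2, Ccl3, Ccl4, Ccl5, Ccl6, Ccl7, Ccl8, Ccl9, Ccl12 and Ccl24. Members were the 10 rows, of 39179 genes in the count table, whose gene symbol equals one of these names. TAMs had been sorted from subcutaneous tumors of a Braf-mutant mouse melanoma line, grown in C57BL/6 hosts of 8 weeks of age and taken 4 days after implantation. In the Ptgs-competent group (3 libraries) the injected tumor cells were wildtype, and in the Ptgs-deficient group (3 libraries) the tumor cells lacked Ptgs1 and Ptgs2, the genes for the cyclooxygenases that start prostaglandin synthesis. Each library came from a pool of 10 tumors, and 800 pg of RNA were used. The edit lies in the tumor cells and the macrophages came from the hosts, so that Ptgs1 and Ptgs2 in these libraries do not check the labels. The sort kept live CD45+ CD11b+ F4/80+ cells without NK1.1 or Ly6G and with no or dim Ly6C.

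CC chemokines are small secreted proteins that attract leukocytes through G protein-coupled receptors and are named for a pair of adjacent cysteines near the start of the mature protein. Macrophages are a main source of them in inflamed tissue and tumors. Ligands of CCR2 bring in monocytes, ligands of CCR1 attract monocytes, macrophages and T cells, and eotaxins attract eosinophils through CCR3.

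The coding sequences around the paired cysteine codons are shown because this pair defines the family and because similarity between the genes could bear on how reads were assigned. Capitals mark the cysteine codons in 24 bases of the GENCODE transcript of 9 of the genes (annotation M21 on GRCm38), written 5′ to 3′.
Ccl2: ccactcaccTGCTGCtactcattc
Ccl7: gcatccacaTGCTGCtatgtcaag
Ccl12: ccagtcacgTGCTGTtataatgtt
Ccl8: ccagtcaccTGCTGCtttcatgta
Ccl4: cccacttccTGCTGTttctcttac
Ccl5: accactcccTGCTGCtttgcctac
Ccl6: tcttcagacTGCTGCttctcttat
Ccl9: tcttcagatTGCTGCctgtcctat
Ccl24: ccctcatctTGCTGCacgtccttt
The pair was written TGCTGC in 8 of the genes and TGCTGT in Ccl4 and Ccl12. It began at codon 50 of the open reading frame in Ccl6 and at codon 57 in Ccl9, and between codons 32 and 34 in the other 8, so that the ligands of the CCR1 group carry a longer stretch before it. Coding identity, over the longer of each pair, ranged from 37.6% (Ccl2 and Ccl5) to 68.1% and was highest between Ccl3 and Ccl4 (68.1%), Ccl6 and Ccl9 (65.8%) and Ccl8 and Ccl12 (65.1%). The libraries read the 3′ end of transcripts, and in none of the 10 genes (0 of 10) did the last 500 transcript bases share a stretch of 50 bases with a transcript of another gene.

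The members lie in 2 groups on chromosome 11 and at 1 site on chromosome 5 (GRCm38). Ccl2, Ccl7, Ccl12 and Ccl8 follow each other from 82035571 to 82116799. Ccl5, Ccl9, Ccl6, Ccl3 and Ccl4 follow from 83525778 to 83664683. No other tested gene lies inside either interval. Ccl24 lies at 135569937 to 135573049 on chromosome 5.

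Promoter sequences were at hand for 5 members (RefSeq, GRCm38.p6, 250 bases before the start site and 50 from it on). Those of Ccl8, the only member called, and of Ccl3, the member with the lowest fold change, are shown on the strand of the gene, at chr11:82114935-82115234 (plus strand) and chr11:83649329-83649628 (minus strand). Capitals mark matches to the motifs searched.
Ccl8: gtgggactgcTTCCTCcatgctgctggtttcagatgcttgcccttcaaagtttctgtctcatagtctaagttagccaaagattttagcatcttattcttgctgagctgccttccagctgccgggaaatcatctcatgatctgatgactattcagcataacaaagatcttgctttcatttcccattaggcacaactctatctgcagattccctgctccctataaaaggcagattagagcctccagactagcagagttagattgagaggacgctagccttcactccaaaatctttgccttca
Ccl3: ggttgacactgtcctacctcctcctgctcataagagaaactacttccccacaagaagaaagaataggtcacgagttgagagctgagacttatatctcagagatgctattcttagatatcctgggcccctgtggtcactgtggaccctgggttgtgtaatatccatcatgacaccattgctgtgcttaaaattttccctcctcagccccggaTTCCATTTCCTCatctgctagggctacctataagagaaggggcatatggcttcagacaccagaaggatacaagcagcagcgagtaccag
The motifs were searched on both strands. The PU.1 letters GAGGAA, held by 28.3% of 32851 promoters of this length, were in 3 of the 5 members' promoters (Ccl3, Ccl8 and Ccl12). The interferon-stimulated response element GAAANNGAA (8.56% of promoters) was in Ccl3, where it overlaps the PU.1 match. NF-kappaB letters GGNNTTTCC (5.82%) and AP-1 letters TGANTCA (7.81%) were in Ccl9. GAS letters TTCNNNGAA (8.30%) and CRE letters TGACGTCA (1.79%) were in 0 of the 5. These matches describe letters in a window and say nothing of binding.

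The libraries held between 4431184 and 8760679 counts, and 8793 genes were tested, of which 19 were called, 14 of them higher in the Ptgs-deficient group. A gene was called where its edgeR quasi-likelihood adjusted p was at most 0.05 and its log2 fold change at least 1.5 in size. Libraries varied strongly, with a common biological coefficient of variation of 1.26, and the median log2 fold change of all tested genes was 0.018. One transcript, Gm26924, took 6.83% to 11.6% of the counts in the Ptgs-competent libraries and 1.82% to 4.63% in the Ptgs-deficient libraries. Dropping it left Ccl8 the only member called (log2 fold change 3.49).

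The groups are called competent and deficient from here on, for the tumors' Ptgs genotype, and each list of 3 values is in the order of replicates 1, 2 and 3. All 10 chemokine genes passed the filter on low counts, and all 10 had a fitted log2 fold change above 0, against 50.7% of all tested genes. One member, Ccl8, was called higher (1 of 10, against 0.159% of tested genes), and 5 (Ccl2, Ccl6, Ccl7, Ccl8 and Ccl24) had an unadjusted p under 0.05 and a higher level (5% of tested genes). Levels are read counts scaled to library size (CPM). The levels of 7 members did not overlap between groups and were higher in every deficient library (11% of tested genes). Only the levels of Ccl3, Ccl4 and Ccl9 overlapped. The median log2 fold change over the 10 genes was 2.48. The filter asks for 1.76 CPM of the library total in 3 libraries, and Ccl24 reached this in 0, Ccl5 in 1 and Ccl12 in 2 of the competent libraries, so that these 3 passed through the deficient libraries and the counts above are not free of the filter. The other 7 members reached it in every library. Of these 7, all 7 were fitted above 0, 4 (Ccl2, Ccl6, Ccl7 and Ccl8) did not overlap and the same 4 had an unadjusted p under 0.05, with a median log2 fold change of 1.31. Among the 5080 genes that reached it in every competent library, the shares were 41.9%, 9.33% and 5.37% and the median was -0.19. That set asks nothing of the deficient libraries, so it keeps genes that fell below the minimum there and is not matched to the 7 members. In bulk RNA, fewer cells of a type and less RNA per cell cannot be told apart, and this holds for each level below.

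**Figure D1:**
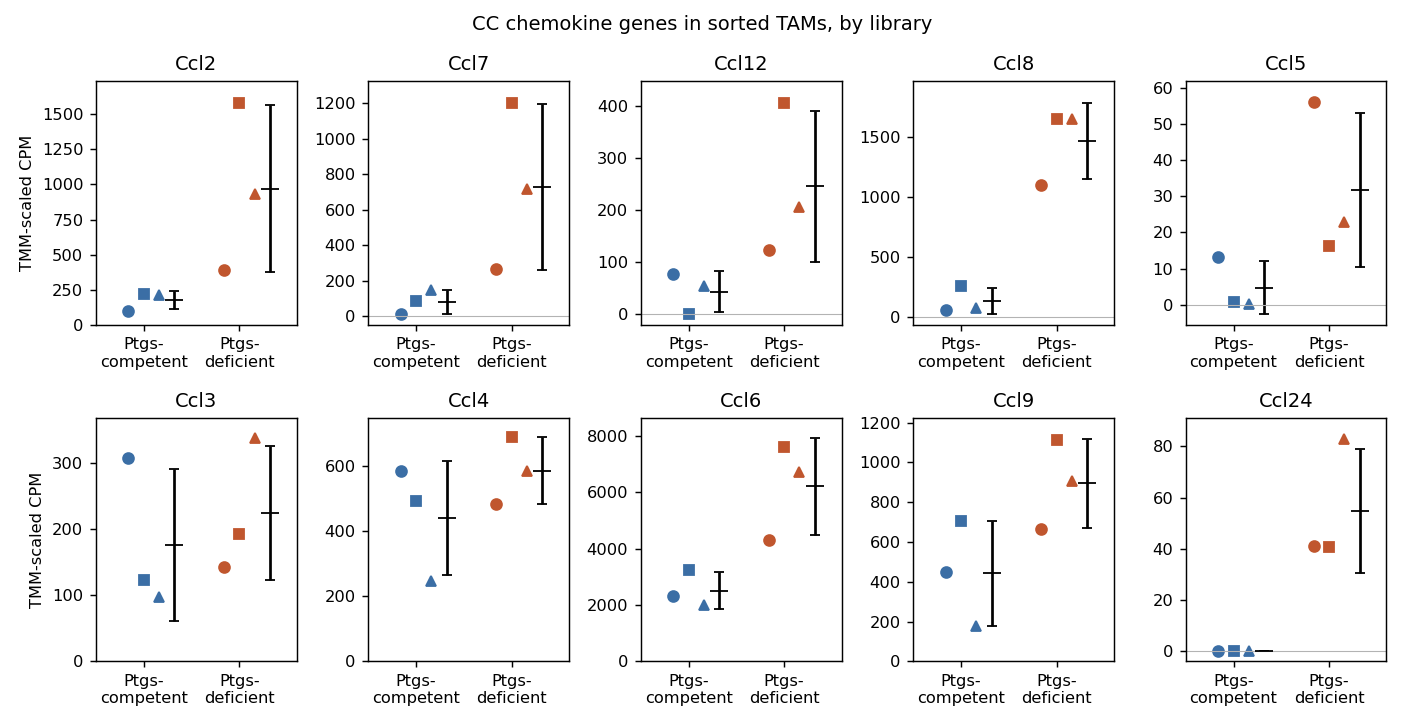
Level of each CC chemokine gene in TMM-scaled CPM (vertical axis, linear) in the 3 competent (blue) and 3 deficient (orange) libraries. Circles, squares and triangles are replicates 1, 2 and 3, and black bars give the mean ± SD. The orange points lie above all blue points in 7 panels and overlap them for Ccl3, Ccl4 and Ccl9.

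Among the monocyte chemoattractants, Ccl8 had the largest fitted difference of the members with counts in both groups, in the fit of all 6 libraries. Without competent replicate 3 the log2 fold change of Ccl7 was larger (4.05 against 3.28). Without competent replicate 1 those of Ccl5 (5.87) and Ccl12 (3.18) exceeded the 3.16 of Ccl8. In mice, CCL8 acts on CCR8, a receptor of T helper type 2 cells and regulatory T cells. Its level was 61.2, 255 and 75.4 CPM in competent replicates 1, 2 and 3, and 1104, 1651 and 1653 CPM in deficient replicates 1, 2 and 3. Even the lowest deficient library lay more than 4 times above the highest competent one, and replicate 2 stood apart among the competent libraries. Its estimated log2 fold change was 3.49 ± 0.564 (SE; 95% interval 2.24 to 4.75), an 11.3-fold higher level, with an edgeR adjusted p of 0.0462. The fold change stayed between 3.16 and 4.43 whichever library was left out, but the call was kept only without competent replicate 2 (mean of the other competent libraries 68.3 CPM, adjusted p 0.0127). The adjusted p without each of the others in turn reached at most 0.205. The same fits called 0 of all tested genes without competent replicate 1, 25 without competent replicate 3, and 2, 4 and 3 without deficient replicates 1, 2 and 3, against 19 with all libraries.

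Ccl2, the main CCR2 ligand and a principal attractant of inflammatory monocytes, stood at 98.8, 216 and 208 CPM in competent libraries and at 391, 1581 and 933 CPM in deficient libraries. The groups did not overlap, but the deficient libraries spread over a wide range, with an SD of 596 around a mean of 968 CPM. Its fitted log2 fold change was 2.47 ± 0.529 (SE; 95% interval 1.30 to 3.65), with an edgeR adjusted p of 0.111.

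Ccl7, a further CCR2 ligand encoded next to Ccl2, was at 10.5, 81.9 and 148 CPM in competent libraries and at 266, 1203 and 717 CPM in deficient libraries. Its libraries kept apart and followed the order of Ccl2 in the deficient group, with replicate 2 highest and replicate 1 lowest. The log2 fold change was 3.18 ± 0.846 (SE; 95% interval 1.30 to 5.07; edgeR adjusted p 0.208). The competent mean of 80.2 CPM fell to 46.2 CPM without replicate 3, and the log2 fold change became 4.05.

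Ccl12, a CCR2 ligand of mice, was at 77.0, 0.492 and 54.3 CPM in competent libraries and at 125, 407 and 207 CPM in deficient libraries. Competent replicate 2 held only 3 counts of Ccl12 although it held 1316 of Ccl2. Its estimated log2 fold change was 2.49 ± 1.13 (SE; 95% interval -0.036 to 5.01; edgeR adjusted p 0.579). Left without replicate 1, the competent mean of 43.9 CPM became 27.4 CPM and the log2 fold change 3.18.

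The ratio of Ccl7 to Ccl2 was between 0.679 and 0.768 in deficient libraries and between 0.106 and 0.711 in competent libraries. The ratio of Ccl12 to Ccl2 was 0.222 to 0.319 against 0.002 to 0.779. The ratio of Ccl8 to Ccl2 was 1.04 to 2.82 against 0.362 to 1.18. All 3 ratios overlapped between groups, and the lowest of the Ccl12 ratios rests on 3 counts of Ccl12. The summed level of these 4 genes was 429 ± 161 CPM (SD, n = 3) in the competent group and 3413 ± 1481 CPM (SD, n = 3) in the deficient group.

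Of Ccl3, Ccl4 and Ccl5, whose products attract T cells, NK cells and monocytes, Ccl3 and Ccl4 overlapped between groups and Ccl5 did not. Ccl3, whose product binds CCR1, was at 307, 123 and 96.8 CPM in competent libraries and at 142, 192 and 337 CPM in deficient libraries. The groups overlapped over most of their range. Its fitted log2 fold change was 0.35 ± 0.525 (SE; 95% interval -0.82 to 1.52; edgeR adjusted p 0.9995), so that the data allow a lower as well as a higher level. The competent mean of 176 CPM rested on replicate 1 and was 110 CPM without it, and the fitted sign turned to -0.068 without deficient replicate 3.

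Ccl4, the neighbor and closest relative of Ccl3 in this set, was at 582, 492 and 245 CPM in competent libraries and at 482, 689 and 583 CPM in deficient libraries. Only competent replicate 3 lay clearly below the rest. The log2 fold change was 0.41 ± 0.375 (SE; 95% interval -0.42 to 1.25; edgeR adjusted p 0.9995). The ratio of Ccl4 to Ccl3 counts was 2.81 ± 1.08 (SD, n = 3) in the competent and 2.90 ± 1.02 (SD, n = 3) in the deficient group.

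Ccl5, a T cell and NK cell attractant that those cells also make, was the least abundant member found in both groups. It was at 13.2, 0.821 and 0.216 CPM in competent libraries, or 83, 5 and 1 counts, and at 56.0, 16.3 and 22.8 CPM in deficient libraries. The groups did not overlap, but competent replicate 1 came close to the lowest deficient library. The competent mean of 4.75 CPM was 0.518 CPM without replicate 1, and the deficient mean of 31.7 CPM was 19.5 CPM without replicate 1. Its estimated log2 fold change was 2.73 ± 1.95 (SE; 95% interval -1.60 to 7.06; edgeR adjusted p 0.948), and it reached 5.87 without competent replicate 1 and 2.04 without deficient replicate 1. Of 13 NK and T cell markers, 6 had a count in some library, Cd3e, Ncr1, Prf1, Gzmb, Klrd1, Trac and Xcl1 were at 0, and the summed level was 2.13 to 2.37 CPM in competent and 16.8 to 33.6 CPM in deficient libraries. Most of the deficient sum was Klrk1, at 26.3, 4.29 and 16.1 CPM, and Gzma and Cd3d in replicate 2, at 20.4 and 7.38 CPM. Nkg7 and Klrb1c of this list had at most 5 counts in any library of either group and overlapped between groups. The part of these cells in the Ccl5 level was not tested.

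Ccl6 and Ccl9, CCR1 ligands made by rodent myeloid cells, were abundant in both groups. Ccl6 was at 2312, 3232 and 1989 CPM in competent libraries and at 4295, 7621 and 6709 CPM in deficient libraries. Every deficient library lay above every competent one. Its fitted log2 fold change was 1.31 ± 0.350 (SE; 95% interval 0.53 to 2.08), a 2.47-fold higher level, with an edgeR adjusted p of 0.208. By mean level it stood at percentile 99.6 of the tested genes in the competent group and at 99.8 in the deficient group. Counts of 3′ ends do not scale with transcript length.

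Ccl9 was at 448, 704 and 177 CPM in competent libraries and at 667, 1113 and 907 CPM in deficient libraries. Competent replicate 2 overlapped the deficient range and replicate 3 was far below it. The log2 fold change was 1.02 ± 0.468 (SE; 95% interval -0.027 to 2.06; edgeR adjusted p 0.595). The ratio of Ccl6 to Ccl9 was 6.44 to 7.39 in deficient libraries and 4.59 to 11.2 in competent libraries.

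Ccl24, an eotaxin that recruits eosinophils through CCR3 and is a product of alternatively activated macrophages, had no count in competent libraries (0 in each of 3). A count of 0 allows up to 3 counts, or 0.478, 0.492 and 0.647 CPM in replicates 1, 2 and 3. The deficient libraries held 224, 343 and 400 counts, or 40.9, 40.8 and 82.8 CPM. The mean deficient level was therefore 102 times the floor of 3 counts per library. This ratio covers counting error only and leaves out the spread between libraries, so it is no lower limit of the difference. The fitted log2 fold change was 11.4 ± 2.09 (SE), with an interval, as for the other members, of 6.54 to 16.2. The edgeR adjusted p was 0.0968, and Ccl24 was not called. Of the 8 eosinophil markers, Epx, Prg2, Ear1 and Il5ra were at 0 in all libraries, and the summed level was 0 to 14.9 CPM in competent and 8.69 to 56.0 CPM in deficient libraries.

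**Figure D2:**
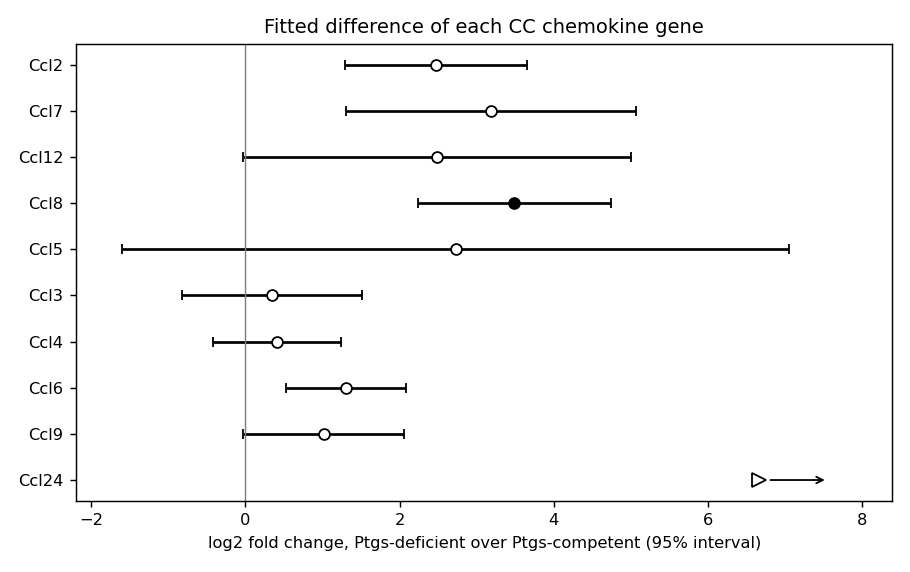
Fitted log2 fold change of each gene, Ptgs-deficient over Ptgs-competent (horizontal axis), with its 95% interval. The filled point is the called gene, Ccl8. The triangle with an arrow is the mean deficient level of Ccl24 against its floor, which covers counting error only. The intervals of Ccl2, Ccl7, Ccl8 and Ccl6 lie above 0, and those of Ccl12, Ccl5, Ccl3, Ccl4 and Ccl9 include it.

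The edgeR likelihood ratio test, which does not carry the uncertainty of each gene's dispersion, called 4 members higher (Ccl2, Ccl7, Ccl8 and Ccl24; 4 of 10 against 1.55% of tested genes), of which Ccl24 passed the filter through the deficient libraries alone. The adjusted p was 0.0045 for Ccl2, 0.0169 for Ccl7, 2.17e-05 for Ccl8 and 9.04e-05 for Ccl24. Ccl6 had an adjusted p of 0.0546 and a log2 fold change of 1.31, below the limit of 1.5.

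Over 17 alternatives, the log2 fold change of Ccl6 lay between 1.13 and 1.55, that of Ccl8 between 3.16 and 4.43 and that of Ccl5 between 2.04 and 5.87, and only that of Ccl3 crossed 0.

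**Figure D3:**
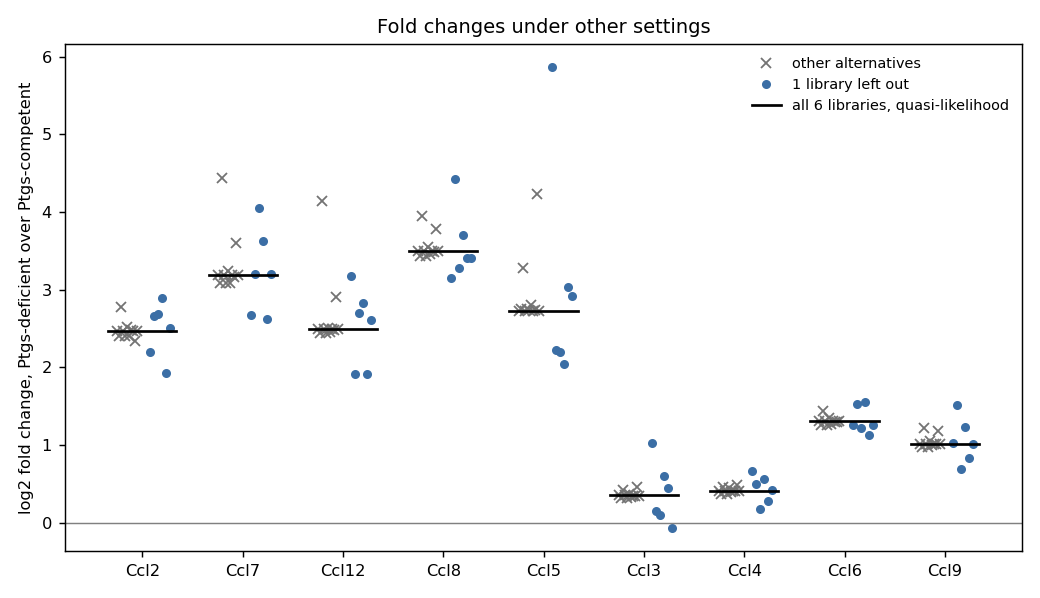
Log2 fold change of the 9 genes with counts in both groups (vertical axis) in all 6 libraries (black line), with 1 library left out (blue points) and under other tests, scalings and filters (grey crosses). Ccl8 stays between 3.16 and 4.43, Ccl6 between 1.13 and 1.55, and Ccl3 goes from -0.068 to 1.03.

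Together, the 10 genes took 0.371%, 0.508% and 0.314% of the counts in competent libraries and 0.790%, 1.39% and 1.15% in deficient libraries. Their summed level was 4004 ± 1058 CPM (SD, n = 3) against 11412 ± 3532 CPM (SD, n = 3). Ccl6 alone made up the largest part of these counts in every library, 59.1% to 66.4% in competent and 52.5% to 56.7% in deficient libraries. Ccl8 held 1.56% to 4.99% of the chemokine counts in competent libraries and 11.4% to 14.6% in deficient libraries. Ccl4 held 8.19% to 14.9% against 4.75% to 6.37%. Shares of Ccl8 and Ccl24 were higher and those of Ccl4 and Ccl6 lower in every deficient library, and a share of a total falls where another member gains.

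**Figure D4:**
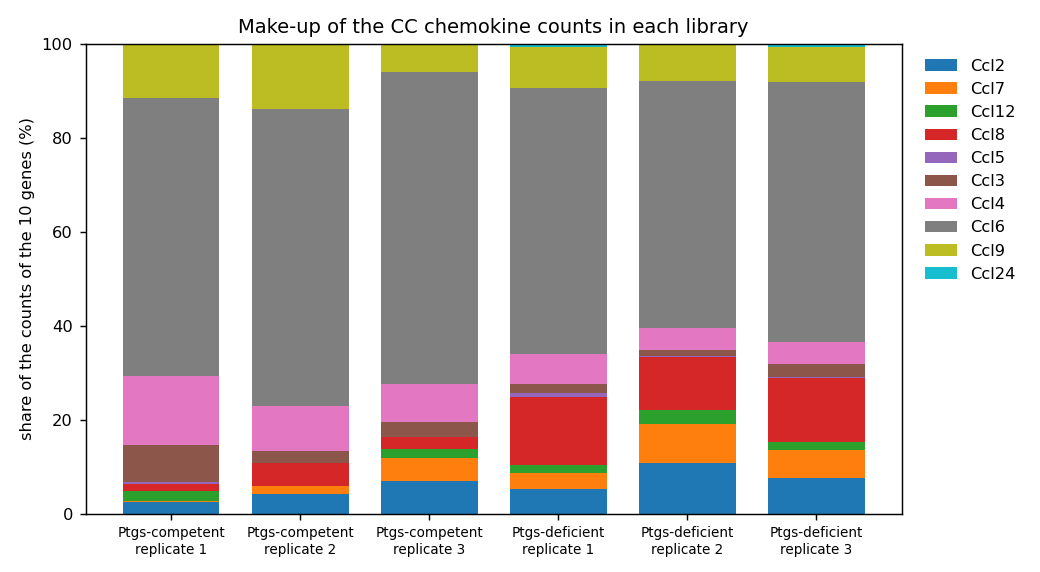
Share of each gene in the summed counts of the 10 CC chemokine genes (vertical axis, percent) in each library (horizontal axis). Ccl6 (grey) takes 52.5% to 66.4% of every bar, and the Ccl8 segment (red) widens from 1.56% to 4.99% in competent libraries to 11.4% to 14.6% in the deficient ones.

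All 12 macrophage markers, among them Csf1r, Cd68, C1qa, Mertk and Adgre1 (listed as Emr1), had counts. Their summed level differed between libraries, at 18933, 19369 and 7961 CPM in competent replicates 1, 2 and 3 and at 22826, 23082 and 27637 CPM in deficient libraries. Competent replicate 3 stood far below the rest. Most of this sum was Lyz2, at 7427, 7108 and 2884 against 7104, 6839 and 10228.5 CPM, and C1qa, at 3294, 5532 and 1728 against 6953, 6893 and 6643 CPM. The scale below therefore rests mainly on these 2 genes. Of the 12 markers, 11 were fitted higher (50.7% of tested genes) and 1, Mertk, lower, at 101, 108 and 89.9 against 94.3, 84.1 and 101 CPM. Per 1000 CPM of these markers, the 10 chemokine genes came to 207, 264 and 376 CPM in competent libraries and to 332, 629 and 440 CPM in deficient libraries, which overlap. On this scale 3 members (Ccl5, Ccl8 and Ccl24) were higher in every deficient library, as were 5.47% of tested genes, and 7 were so without competent replicate 3, as were 11.4% of tested genes. Ccl5 and Ccl24 among the 3, and also Ccl12 among the 7, passed the filter through the deficient libraries. Ccl5 was apart only by 0.699 in competent replicate 1 against 0.707 CPM per 1000 in deficient replicate 2. Of the members at the filter minimum in every library, only Ccl8 was apart with all libraries kept. Ccl8 was at 3.23, 13.2 and 9.48 CPM per 1000 in the competent and at 48.4, 71.5 and 59.8 in deficient libraries, and these ranges were well apart. Ccl2 was at 5.22, 11.2 and 26.2 against 17.1, 68.5 and 33.8 CPM per 1000, so that competent replicate 3 lay above deficient replicate 1. Ccl6 was at 122, 167 and 250 against 188, 330.2 and 243 CPM per 1000 and overlapped likewise. The ratio of the means was below 1 for Ccl3 (0.770) and Ccl4 (0.829).

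**Figure D5:**
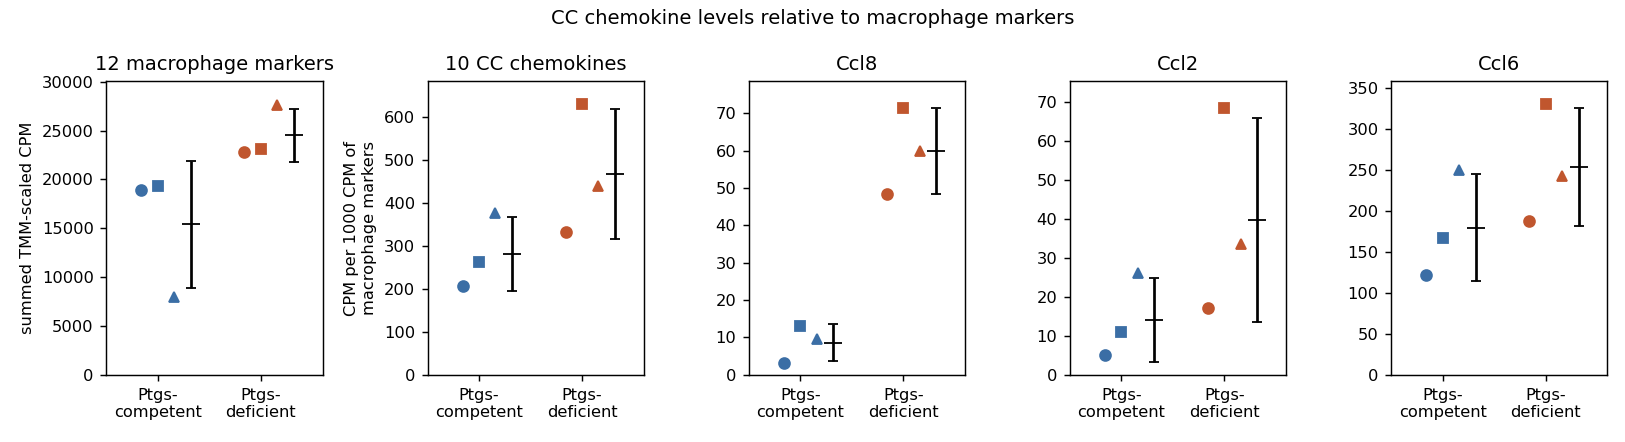
Left panel, summed level of 12 macrophage markers (TMM-scaled CPM). Other panels, level of the 10 CC chemokine genes together and of Ccl8, Ccl2 and Ccl6 per 1000 CPM of these markers. Symbols and bars are replicates and mean ± SD as labelled by group, and the groups are apart for Ccl8 and overlap for the summed genes, Ccl2 and Ccl6.

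Markers of other cell types were summed in each library. Of the 12 markers of resident-type macrophages, all 12 had a count, the sum was 1314 to 1847 CPM in competent and 10012 to 19916 CPM in deficient libraries, and 4 were called higher (Cd5l, Cd209g, Clec10a and Retnla; 0.159% of tested genes). Most of the deficient sum was Retnla, at 636, 676 and 713 against 6422, 9203 and 14796 CPM. Cd5l and Cd209g, with at most 3 and 1 counts in a competent library, passed the filter through the deficient libraries alone. The 8 monocyte markers summed to 965 to 2488 CPM against 5138 to 6382 CPM, with Ccr2 as one of them and Plac8 called higher. Most of this sum was F13a1, at 1961, 1297 and 707 CPM against 3686, 4012 and 3725 CPM, and Vcan of the same list went the other way, at 26.6, 85.2 and 31.0 against 0, 17.1 and 0 CPM. Platelet markers summed to 324 to 972 CPM against 2.07 to 20.98 CPM, with 5 of 7 at 0 and Ppbp called lower. Nearly all of the competent sum was Ppbp, at 972, 604 and 308 CPM. Fibroblast markers summed to 157 to 349 CPM against 15.9 to 51.2 CPM, with only Lum at 0. Of the 9 tumor cell markers, Mlana, Pmel, Tyr, Tyrp1, Dct, Sox10 and S100b were at 0 in all libraries, and the 2 with counts went opposite ways. Sparc, also made by stromal cells, was at 179.8, 126 and 600.3 CPM in competent and 22.6, 17.6 and 36.8 CPM in deficient libraries, and Mitf at 1.91, 0 and 0.647 against 10.6, 44.3 and 18.2 CPM. Mast cell markers summed to 79.3 to 96.8 CPM against 13.7 to 48.5 CPM, with Kit, Fcer1a, Ms4a2 and Tpsab1 at 0. Nearly all of the competent sum was Hdc, at 71.2, 96.8 and 79.3 against 1.09, 34.3 and 13.7 CPM, while Cpa3 was found only in deficient replicate 1, at 27.9 CPM. Endothelial markers summed to 92.9 to 197 CPM against 22.3 to 65.1 CPM, with Cdh5, Tek, Cldn5 and Emcn at 0. Most of the competent sum was Pecam1, at 88.0, 197 and 92.9 against 65.1, 15.4 and 35.8 CPM. Dendritic cell markers summed to 14.5 to 42.7 CPM against 0.365 to 26.5 CPM, with Zbtb46, Xcr1, Ccr7 and Itgae at 0. Neutrophil markers summed to 545 to 734 CPM against 439 to 532 CPM, with Ly6g and Mpo at 0, although Retnlg of this list was at 20.2, 59.9 and 16.2 against 123, 114 and 180.2 CPM. The part of these cell types in the chemokine levels was not tested.

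The remaining CC chemokine genes were scarcely found in these macrophages. Of the 13 others (16 rows, as some symbols stand for several genes), 13 rows had no count in any library and only Ccl17 could be tested. Ccl17, a CCR4 ligand that attracts T helper type 2 and regulatory T cells, had 0 counts in every competent library and stood at 24.5, 34.3 and 30.8 CPM in deficient libraries. Its mean deficient level was 55.4 times the floor of 3 counts per library, a ratio that leaves out the spread between libraries. The fitted log2 fold change was 10.5 ± 2.79 (SE), with an interval, as for the members, of 4.05 to 16.9. With an edgeR adjusted p of 0.246, Ccl17 was not called, while the likelihood ratio test and DESeq2 called it (1.55% and 1.97% of tested genes called higher). Ccl17 also passed the filter through the deficient libraries alone. Ccl22 was found only in deficient replicate 1, at 20.3 CPM, and a row of Ccl25 only in competent replicate 1, at 4.78 CPM. The eotaxin gene Ccl11, which lies in the interval of Ccl2 to Ccl8, had 0 counts in all 6 libraries.

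Of the 15 CC chemokine receptor genes listed, 5 were tested, all 5 had a fitted fold change above 0 (50.7% of tested genes), 0 were called by edgeR quasi-likelihood and 3 had an unadjusted p under 0.05 and a higher level (5% of tested genes). The likelihood ratio test, DESeq2 and limma voom each called 1, Ccr2, against 1.55%, 1.97% and 0.716% of tested genes called higher. Ccr2, the receptor of Ccl2, Ccl7 and Ccl12, was at 387, 238 and 114 CPM in the competent and 749.6, 865 and 909 CPM in deficient libraries. Its fitted log2 fold change was 1.77 ± 0.433 (SE; edgeR adjusted p 0.171), with no overlap. Ccr1, which binds the Ccl6 and Ccl9 products, was at 155, 110.3 and 59.1 CPM against 151, 254 and 185 CPM and overlapped (log2 fold change 0.86 ± 0.465, SE; edgeR adjusted p 0.758). The Ccl8 receptor gene Ccr8 and the Ccl17 receptor gene Ccr4 had 0 counts in all libraries, as did Ccr6, Ccr7 and Ccr10. Ccr3, the eotaxin receptor gene, was at 12.9, 0 and 0 CPM in the competent and at 33.6, 2.74 and 0.207 CPM in deficient libraries.

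All 20 transcription factors listed as known inducers of CC chemokine genes were tested, 16 had a fitted fold change above 0 (50.7% of tested genes), 0 were called by edgeR quasi-likelihood and 6 had an unadjusted p under 0.05 and a higher level (5% of tested genes). The likelihood ratio test called 1 (Irf4) and DESeq2 2 (Irf4 and Fos), against the same 1.55% and 1.97% of tested genes. Irf4 had 0 counts in every competent library and passed the filter through the deficient libraries alone. Of the 19 other inducers, 15 were fitted above 0 and 5 had an unadjusted p under 0.05 and a higher level. Maf, the most abundant and a regulator of macrophage identity, was at 1981 CPM in competent and 1889 CPM in the deficient group on average (log2 fold change -0.068 ± 0.394, SE; edgeR adjusted p 0.9995). Jun, a subunit of AP-1, was at 1327, 1092 and 1082 CPM in the competent and 1938, 2139.6 and 2107 CPM in deficient libraries, without overlap (log2 fold change 0.82 ± 0.276, SE; edgeR adjusted p 0.346). Fos, its partner, was at 685, 288 and 202 CPM against 795, 1704 and 1581 CPM, also without overlap (log2 fold change 1.80 ± 0.494, SE; edgeR adjusted p 0.230).

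The nearest tested genes outside the chemokine intervals were set beside the members. On the low side of the Ccl5 to Ccl4 interval, Taf15 lay 19035 bp away and had a log2 fold change of -1.70 ± 0.829 (SE; edgeR adjusted p 0.663), with overlapping groups. On its high side, Wfdc17 lay 39308 bp away and was at 464, 362 and 431 CPM in the competent and 966, 2371 and 2206 CPM in deficient libraries. Its groups did not overlap (log2 fold change 2.14 ± 0.384, SE; edgeR adjusted p 0.0762). Psmd11 and Zfp830, the nearest to the Ccl2 to Ccl8 interval at 1562323 and 647546 bp, and Hip1 and Rhbdd2, the nearest to Ccl24, had overlapping groups and log2 fold changes of 0.47, -1.32, -0.88 and -1.09.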

How the data were processed

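Sorted TAMs were profiled with QuantSeq 3′ FWD libraries, 3 Ptgs-competent and 3 Ptgs-deficient, as numbered in the labels. The authors deposited raw read counts per gene, made by trimming (BBDUK, fqtrim, cutadapt), STAR alignment to GRCm38 and featureCounts. Tool versions, strand setting, treatment of multiply aligned reads and molecular identifiers are not given in the sources used here, so PCR copies may be counted and floors cover counting error only. Totals ran from 4431184 to 8760679 counts.

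The analysis used edgeR 4.0.16 (R 4.3.3). filterByExpr (minimum count 10, minimum total 15) kept 8793 genes. Libraries were scaled by TMM and tested two-sided by quasi-likelihood, with Benjamini-Hochberg adjustment over all 8793. The study names an edgeR generalized linear model test without its form. Thresholds follow the study. The SE is the absolute log2 fold change over the square root of F. Levels are TMM-scaled CPM. A group at 0 was set to a floor of 3 counts per library.

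Labels do not say that pools were independent cultures or experiments, so p-values measure the spread between these libraries. No 2 libraries of a group agreed within sampling noise. Members and lists were chosen with earlier results of these data known. Named genes were the members, and from the other chemokine, receptor and inducer lists those called plus the 3 with the highest mean CPM, summed marker lists with defining markers at 0, and nearest tested neighbors. Ccl11, Ccr3, Ccr4, Ccr6, Ccr7, Ccr8, Ccr10, Mitf, Sparc, Retnlg, F13a1, Vcan, Hdc, Cpa3, Klrk1, Gzma, Cd3d, Nkg7, Klrb1c, Lyz2, Pecam1 and Irf4 were named after their values were seen. Sequences came from GENCODE M21 transcripts and RefSeq promoters. The scripts were tested on simulated data. There the main test called 1, 6, 7 and 15 of 50 genes changed by 2, 3, 4 and 5 log2 units, so that most such changes were missed. Alternatives were the likelihood ratio test, DESeq2 1.42.0, limma 3.58.1 voom, other scalings and filters, a replicate block and leaving out each library. Some items are not reported here.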

Additional observations from a re-analysis of the deposited data

How the results depend on the processing

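The quasi-likelihood test called 1 member. The likelihood ratio test called 4 and DESeq2 called 4 (Ccl2, Ccl7, Ccl8 and Ccl24), limma voom 3 (Ccl2, Ccl7 and Ccl8), no filter on low counts 5 (these 4 and Ccl12), and a filter of 50 counts in 3 libraries 0 (Ccl8 adjusted p 0.0607; 5 members at an unadjusted p under 0.05). Of all tested genes, DESeq2 called 1.97% higher, voom 0.716%, no filter 0.913% and the replicate block 0.557%. The filter of 50 counts called 0.172% higher, with 4.76% at an unadjusted p under 0.05 and higher. Leaving out 1 library gave 0 to 1 member called, with 5 to 7 at an unadjusted p under 0.05 (of tested genes, 0% to 0.205% called higher, and 3.22% to 8.26% at this p and higher). Ccl8 was past the threshold in 11 of 17 alternatives. The fitted sign held for every member in all alternatives except Ccl3, at -0.068 without Ptgs-deficient replicate 3 (range without 1 library -0.068 to 1.03). Of the other CC chemokines, receptors and inducers, the quasi-likelihood test called 0. The likelihood ratio test called 1, 1 and 1 (Ccl17, Ccr2 and Irf4), DESeq2 1, 1 and 2 (Fos added), voom 1 receptor and 1 inducer (Ccr2 and Fos), and no filter 1 receptor and 2 inducers (Ccr2, Fos and Cebpb). Ccl17 and Irf4 passed the filter through the deficient libraries alone. Cebpb was named after its values were seen. The cause of these differences was not tested.

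The 7 members higher in every Ptgs-deficient library became 3 (Ccl5, Ccl8 and Ccl24) per summed macrophage marker level, and 7 to 9 when 1 library was left out, or 3 to 7 with both (14.2% to 20.1% and 6.44% to 11.4% of tested genes). Ccl5, Ccl12 and Ccl24 among the 7, and Ccl5 and Ccl24 among the 3, passed the filter through the deficient libraries. The scaling by macrophage markers and leaving out Gm26924 were chosen after seeing the data. The median log2 fold change of all tested genes was 0.39 under voom and 0.26 under the block, against 0.018. With the replicate number as a block, 3 members were called (Ccl2, Ccl7 and Ccl8). Labels do not say whether same-numbered libraries were made together. Deviations of same-numbered libraries correlated at -0.049, -0.022 and -0.022, which cannot show that they were not. The numbers were not taken to pair the samples.

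Few counts lie behind the competent levels of Ccl5 in replicates 2 and 3 (5 and 1), of Ccl12 in replicate 2 (3) and of Ccl24 in all 3 (0). The part of depth in these levels was not tested.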
